A study of Mus musculus with 6 samples.

Results

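Platelet-derived growth factor (PDGF) and fibroblast growth factor (FGF) genes were followed in cultured mouse aortic cells with and without lipopolysaccharide (LPS), the endotoxin of Gram-negative bacteria. They were picked by gene name from both families, with earlier results of these data known: 4 PDGF ligand genes (Pdgfa, Pdgfb, Pdgfc, Pdgfd), 4 FGF ligand genes (Fgf2, Fgf7, Fgf10, Fgf18) and 2 FGF receptor genes (Fgfr1, Fgfr2). All 10 were found among the 54532 genes of the deposited table, and all 10 had enough counts to be tested. The cells were aortic, from male wild type mice, and carried the label endothelial cells. Each of 3 cell isolations gave 1 Vehicle culture, kept in starvation medium for 8 h, and 1 LPS culture, which received LPS at 500 ng/mL over the same time. The sources used here do not give age, strain or passage number.

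PDGFs are disulfide-linked dimers that signal through the receptor tyrosine kinases Pdgfra and Pdgfrb. The A and B chains are secreted in an active form, whereas the C and D chains carry an extra CUB domain that has to be cut off by proteases before they can bind. In the vessel wall, PDGF-B from endothelial cells recruits pericytes and smooth muscle cells. Most FGFs are secreted and bind FGF receptors together with heparan sulfate, and the receptors pass the signal through the adaptor Frs2 to the Ras and MAP kinase pathway. Fgf7 and Fgf10 are known as mesenchymal ligands of the epithelial splice form of Fgfr2, and Fgf2 as a mitogen of endothelial cells, smooth muscle cells and fibroblasts.

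The libraries held 16509197 to 25082714 counts, so that 3 counts, the limit that a count of 0 allows, corresponded to 0.120 to 0.182 CPM (counts-per-million, here of the unscaled library totals); this covers counting error only. The label of the cells was checked against marker genes. The endothelial genes Pecam1 (0.482 ± 0.374 CPM in Vehicle, SD, n = 3), Cdh5 (0.0361 ± 0.0313 CPM) and Vwf (0.0882 ± 0.108 CPM) were near 0, Cldn5 was at 0 in every library, and 8 of 10 endothelial markers were too low to be tested. The 10 endothelial markers summed to 10.8 to 12.8 CPM in Vehicle and 9.96 to 11.6 CPM under LPS. Erg and Egfl7, the 2 that were tested, carried this sum, with Vehicle means of 8.29 ± 0.973 and 2.95 ± 1.14 CPM. Erg was called lower with LPS (log2 fold change −0.60, edgeR adjusted p = 0.0205), while Egfl7 was not called (adjusted p = 0.141). The 7 fibroblast markers, led by Col1a1, summed to 6245 to 7444 CPM in Vehicle and 3980 to 5537 CPM under LPS. The 6 pericyte markers, led by Rgs5, summed to 1284 to 1383 CPM and 975 to 1179 CPM, and the 7 smooth muscle markers, led by Acta2, to 407 to 423 CPM and 457 to 575 CPM. Of the smooth muscle markers, Acta2 and Smtn carried the sum, while Myh11 (0.262 CPM in Vehicle), Myocd (0.134 CPM) and Des (0.182 CPM) were too low to be tested and Tagln was at 1.00 CPM. Rgs5 (879 CPM in Vehicle) and Cspg4 (371 CPM) carried the pericyte sum, while Kcnj8 (2.30 CPM) and Abcc9 (1.91 CPM) were low. Among the fibroblast markers, Col1a1, Col1a2, Col3a1 and Pdgfra carried the sum, with Lum at 3.40, Dpt at 24.4 and Dcn at 24.9 CPM in Vehicle. The 6 macrophage markers, led by Csf1r, summed to 5.36 to 7.63 CPM over all libraries, with Ptprc and Adgre1 at 0 in each. The marker levels therefore went against the endothelial label, and the cells are called aortic cells here. In RNA from whole cultures, fewer cells of a type and less RNA per cell cannot be told apart.

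Promoter windows show the DNA in front of ligand and receptor genes that moved in opposite directions under LPS. RefSeq sequence of the GRCm38.p6 build was at hand for 8 of the 10 genes, in 9 windows of 250 bases that end just before an annotated transcript start. Pdgfb and Fgfr1 had no entry. The windows below belong to Pdgfa and Fgf18, which rose, and to Pdgfd and Fgfr2, which fell. Capitals mark motif matches on either strand.
Pdgfa, chr5:138994945-138995194, minus strand: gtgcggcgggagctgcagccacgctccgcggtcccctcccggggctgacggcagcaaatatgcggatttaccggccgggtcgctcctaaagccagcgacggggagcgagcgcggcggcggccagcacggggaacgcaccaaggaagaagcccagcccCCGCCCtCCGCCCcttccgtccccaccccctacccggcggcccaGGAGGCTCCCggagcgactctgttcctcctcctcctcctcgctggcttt
Fgf18, chr11:33147401-33147650, minus strand: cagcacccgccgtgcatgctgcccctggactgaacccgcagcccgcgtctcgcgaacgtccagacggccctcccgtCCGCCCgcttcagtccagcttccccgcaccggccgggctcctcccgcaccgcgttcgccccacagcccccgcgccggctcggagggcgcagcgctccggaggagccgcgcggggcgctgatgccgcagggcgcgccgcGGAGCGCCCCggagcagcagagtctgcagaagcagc
Pdgfd, chr9:6168236-6168485, plus strand: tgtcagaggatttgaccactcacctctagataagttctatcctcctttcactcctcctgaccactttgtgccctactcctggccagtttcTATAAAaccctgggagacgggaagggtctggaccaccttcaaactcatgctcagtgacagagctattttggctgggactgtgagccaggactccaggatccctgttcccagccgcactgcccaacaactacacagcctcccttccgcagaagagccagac
Fgfr2, chr7:130266809-130267058, minus strand: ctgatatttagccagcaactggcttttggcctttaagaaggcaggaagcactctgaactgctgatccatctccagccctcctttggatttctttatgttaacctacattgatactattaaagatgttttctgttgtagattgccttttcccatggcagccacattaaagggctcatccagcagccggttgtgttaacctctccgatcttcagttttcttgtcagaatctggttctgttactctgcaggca

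The windows were searched on both strands for the AP-1 motif TGANTCA, the Egr1 motif GCGNGGGCG, the GC box GGGCGG, the TATA motif TATAAA, and the NF-kB and CArG motifs. A match to the NF-kB motif began at position −49 from the transcript start in the printed Pdgfa window and at −36 in that of Fgf18, and Pdgfc, which was not called, held one at −150. Of all 32851 promoter windows of the same length, 7.25% held this motif. GC boxes were present in the windows of Pdgfa (at −93 and −86 in the printed one), Fgf18 (at −174), Fgf2 and Fgf10, against 32.7% of all windows. The other Pdgfa window, which is not printed, held a GC box at −60 and no NF-kB match. None of the capitals in the printed windows overlap another motif. The Pdgfd window held a TATA motif at −160 (12.4% of all windows), and those of Fgfr2 and Fgf7 held none of the motifs. Pdgfc also held a CArG box (1.47% of all windows) and Fgf2 an Egr1 motif (4.70%), which overlaps its GC box. No window of these genes held the AP-1 motif, which 6.75% of all windows did. The G and C content of the printed windows was 72.4% for Pdgfa, 77.2% for Fgf18, 53.6% for Pdgfd and 44.0% for Fgfr2, beside a median of 52.4% over all windows. It did not follow the direction of change in the windows that are not printed. Fgf7, which rose, had 43.6%, and Fgf10, which fell, had 61.2%. The uncalled genes Fgf2 and Pdgfc had 62.4% and 50.8%, and the other Pdgfa window 66.4%. The motif matches and the G and C content describe the sequence and are not evidence of binding.

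The comparison of LPS with Vehicle addresses how the cells' PDGF and FGF transcripts respond to LPS. The ligands did not move as a block. Pdgfa, Pdgfb, Fgf7 and Fgf18 rose under LPS, Pdgfd, Fgf10 and Fgfr2 fell, and Pdgfc, Fgf2 and Fgfr1 did not pass the test (edgeR quasi-likelihood F-test, adjusted p below 0.05 over all genes). The calls thus covered 7 of 10 genes, 4 higher and 3 lower, where 49.3% of the 14508 tested genes were called, 24.9% higher and 24.4% lower. LPS and Vehicle libraries did not overlap in CPM for 8 of the 10 genes, against 61.9% of all tested genes. With the isolation as a replicate block the same 10 calls were made, with 25.5% of all tested genes higher and 25.5% lower.

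**Figure D1:**
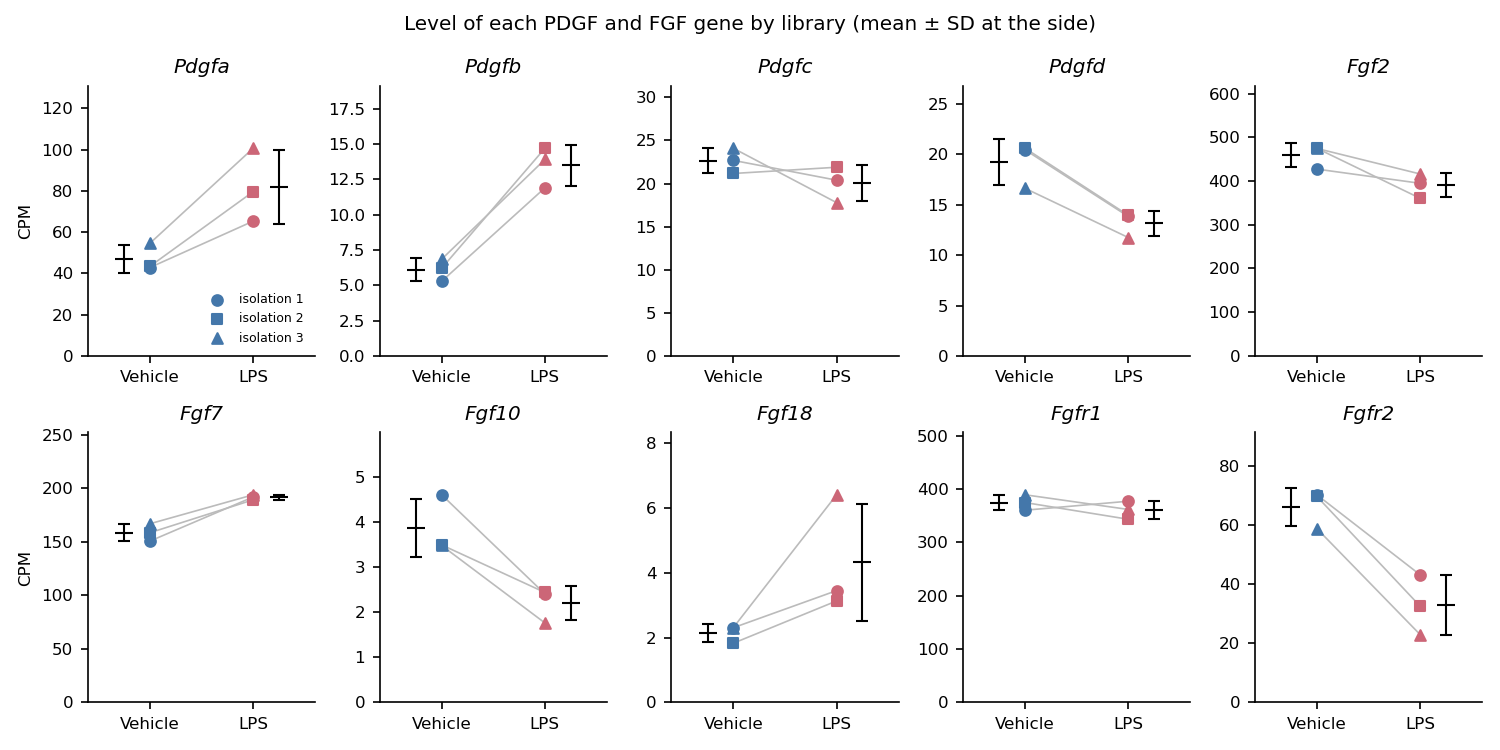
Level of each gene in CPM (vertical axis, from 0) in the 3 Vehicle (blue) and 3 LPS (red) libraries; marker shapes give the isolation, grey lines join cultures of 1 isolation, and black bars give the mean ± SD. Pdgfa, Pdgfb, Fgf7 and Fgf18 were higher and Pdgfd, Fgf10 and Fgfr2 lower in each of the 3 isolations, while Pdgfc and Fgfr1 did not keep 1 direction.

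Among the PDGF ligands, Pdgfb showed the largest rise. Pdgfb (ENSMUSG00000000489, GRCm38 chromosome 15, 79995874 to 80014977, minus strand) encodes the B chain, which binds both PDGF receptors. It had 5.28, 6.20 and 6.84 CPM in Vehicle 1, 2 and 3 and 11.9, 14.7 and 13.9 CPM in LPS 1, 2 and 3. Every LPS library was well above every Vehicle library. The means were 6.11 ± 0.787 and 13.5 ± 1.45 CPM (SD, n = 3 each), a log2 fold change of 1.14 with an SE of 0.158 (edgeR adjusted p = 0.00144). Within isolations 1, 2 and 3 the log2 difference was 1.16, 1.23 and 1.01, so the 3 pairs lay close together.

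Pdgfa (ENSMUSG00000025856, chromosome 5, 138976014 to 138997370, minus strand) encodes the A chain, whose homodimer binds Pdgfra alone. It had 42.8, 43.4 and 54.6 CPM in Vehicle 1, 2 and 3 and 65.3, 79.6 and 101 CPM in LPS 1, 2 and 3. The groups did not overlap, and isolation 3 was the highest of both. The means were 47.0 ± 6.62 and 81.9 ± 17.8 CPM, a log2 fold change of 0.80 with an SE of 0.160 (edgeR adjusted p = 0.00328). Pdgfa shares 813 exonic bases with 6330403L08Rik on the other strand, and without a stated strand setting the reads of the pair cannot be told apart. That gene was at 22.3 ± 0.597 CPM (Vehicle) and 18.5 ± 0.462 CPM (LPS; log2 fold change −0.27, adjusted p = 0.0521).

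The CUB-domain ligands did not rise. Pdgfd (ENSMUSG00000032006, chromosome 9, 6168584 to 6378850, plus strand) encodes the D chain, a ligand of Pdgfrb once cleaved. It had 20.4, 20.6 and 16.6 CPM in Vehicle 1, 2 and 3 and 13.8, 13.9 and 11.7 CPM in LPS 1, 2 and 3. All LPS values were below all Vehicle values, and isolation 3 was the lowest of both groups. The means were 19.2 ± 2.25 and 13.2 ± 1.24 CPM, a log2 fold change of −0.54 with an SE of 0.136 (edgeR adjusted p = 0.00913). Pdgfc (ENSMUSG00000028019, chromosome 3, 81036416 to 81214040, plus strand) encodes the C chain, a ligand of Pdgfra once cleaved. It had 22.7, 21.2 and 24.1 CPM in Vehicle and 20.4, 21.9 and 17.8 CPM under LPS. These ranges overlapped, with a log2 fold change of −0.18 with an SE of 0.119 (edgeR adjusted p = 0.233).

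The mix of PDGF ligand transcripts was compared per length, as CPM per kilobase of the deposited gene length (RPKM), since CPM cannot rank genes of different length. Pdgfa made up 52.9, 53.3 and 60.04% of the summed PDGF ligand RPKM in Vehicle 1, 2 and 3 and 65.1, 67.6 and 75.3% in LPS 1, 2 and 3. Pdgfb contributed 5.41 ± 0.456% in Vehicle and 8.68 ± 0.793% under LPS. The share of Pdgfd was 22.7 ± 3.995% in Vehicle and 11.3 ± 2.49% under LPS, and that of Pdgfc 16.5 ± 0.651% and 10.7 ± 2.23%. The groups did not overlap for any of the 4 shares (2-sided exact permutation test, p = 0.1 each, the smallest p that 3 against 3 allows). The shares are parts of 1 whole in each library, so these tests are not independent. The share of Pdgfc was lower under LPS although Pdgfc itself was not called. These shares depend on the length used: with the longest annotated transcript, Pdgfa made up 60.7% and 72.8%.

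**Figure D2:**
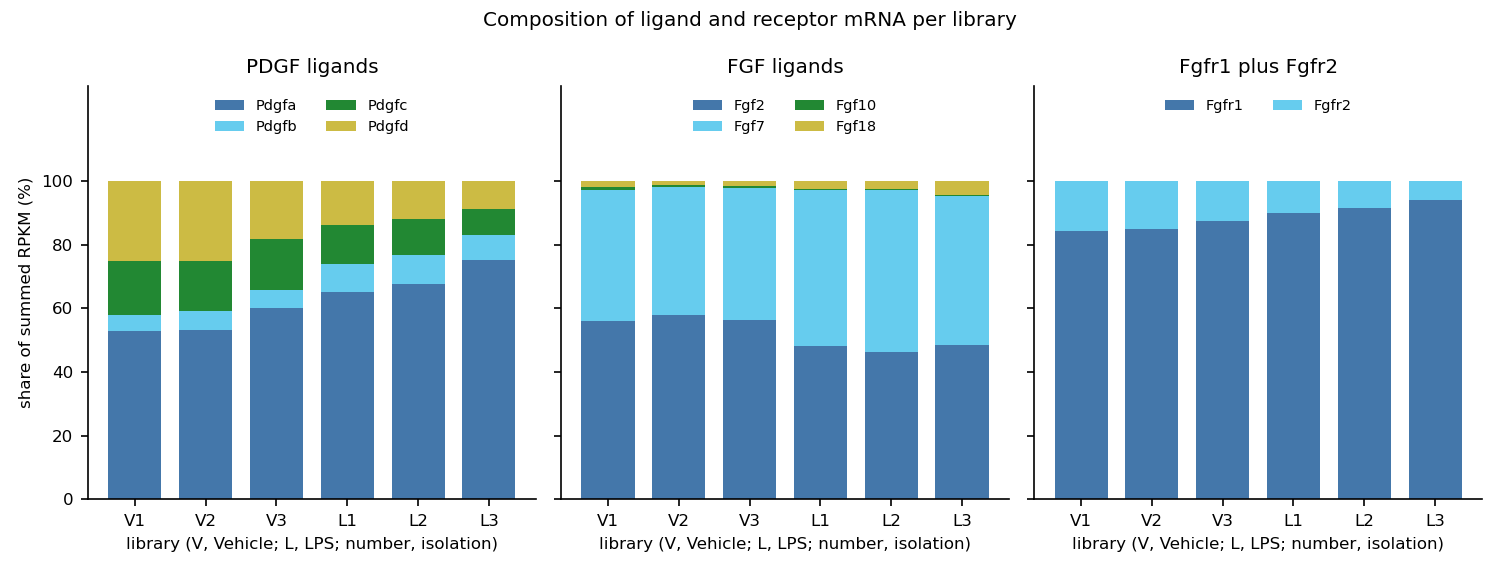
Share of each gene in the summed RPKM (vertical axis, percent) of PDGF ligands, FGF ligands and of Fgfr1 plus Fgfr2 in each library (horizontal axis; V, Vehicle; L, LPS; the number is the isolation). Pdgfa filled 52.9 to 60.04% of the PDGF bars in Vehicle and 65.1 to 75.3% under LPS, and Fgfr2 shrank from 12.6 to 15.7% to 5.73 to 9.87%.

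Fgf2 and Fgf7 were the abundant FGF ligands, and both had small fold changes. Fgf7 (ENSMUSG00000027208, chromosome 2, 126034658 to 126091185, plus strand), also known as keratinocyte growth factor, had 151, 159 and 167 CPM in Vehicle 1, 2 and 3 and 192, 189 and 194 CPM in LPS 1, 2 and 3. The LPS libraries lay close together and above all Vehicle libraries. The log2 fold change was 0.27 (SE 0.0796, edgeR adjusted p = 0.0180). This call ended with library sizes alone (adjusted p = 0.0749), without a filter on low counts (0.0713), and without each of Vehicle 1 (0.0932), Vehicle 2 (0.0811) and LPS 2 (0.0602).

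Fgf2 (ENSMUSG00000037225, chromosome 3, 37348346 to 37410108, plus strand), basic FGF, had 427, 475 and 474 CPM in Vehicle 1, 2 and 3 and 395, 361 and 416 CPM in LPS 1, 2 and 3. Each LPS library was below each Vehicle library, but by a small margin, with a log2 fold change of −0.23 (SE 0.0928) that was not called (edgeR adjusted p = 0.0612). It was called lower with library sizes alone (adjusted p = 0.0218), without LPS 1 (0.0196) and without LPS 3 (0.0451). Fgf2 shares 640 exonic bases with Nudt6, its antisense neighbour, which was at 1.38 ± 0.386 CPM (Vehicle) and 1.83 ± 0.383 CPM (LPS).

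Fgf10 and Fgf18 were expressed at low levels and moved apart. Fgf10 (ENSMUSG00000021732, chromosome 13, 118669791 to 118792115, plus strand) had 4.61, 3.49 and 3.48 CPM in Vehicle 1, 2 and 3 and 2.41, 2.44 and 1.76 CPM in LPS 1, 2 and 3. The groups did not overlap, with a log2 fold change of −0.81 with an SE of 0.243 (edgeR adjusted p = 0.0206). These values rest on 35 to 89 counts per library, and the call ended without Vehicle 1 (adjusted p = 0.0860) and without LPS 3 (0.0634).

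Fgf18 (ENSMUSG00000057967, chromosome 11, 33117430 to 33147400, minus strand), a ligand known from cartilage and lung development, had 2.30, 1.82 and 2.31 CPM in Vehicle 1, 2 and 3 and 3.45, 3.13 and 6.40 CPM in LPS 1, 2 and 3. The LPS libraries were higher throughout, and LPS 3 stood well above the others. The log2 fold change of 1.01 with an SE of 0.307 (edgeR adjusted p = 0.0212) rested on 35 to 127 counts per library. It was 0.62 without LPS 3 and then not called (adjusted p = 0.0906), and the call also ended without Vehicle 1 (0.0551) and without Vehicle 2 (0.0812).

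Per length, Fgf2 made up 56.7 ± 0.919% of the RPKM of the 4 FGF ligands in Vehicle and 47.6 ± 1.10% under LPS, and Fgf7 41.0 ± 0.619% and 49.0 ± 1.88%. Fgf2 was ahead of Fgf7 in every Vehicle library, at 63.0 to 70.0 against 46.4 to 51.4 RPKM. Under LPS the pair overlapped, at 53.2 to 61.4 RPKM for Fgf2 and 58.3 to 59.8 RPKM for Fgf7. Fgf18 and Fgf10 together stayed minor, at 2.98 ± 1.10% and 0.399 ± 0.0854% under LPS. The exact permutation p was 0.1 for each of the 4 shares, the smallest possible, and these shares also depend on each other.

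The FGF receptors differed from each other. Fgfr2 (ENSMUSG00000030849, chromosome 7, minus strand) had the lowest log2 fold change of the 10 genes; with the offset for deposited length described below, Fgf10 and Pdgfd were lower. It had 70.3, 69.7 and 58.8 CPM in Vehicle 1, 2 and 3 and 43.2, 32.6 and 23.0 CPM in LPS 1, 2 and 3. The groups were far apart, and isolation 3 was the lowest in both. The means were 66.3 ± 6.45 and 32.9 ± 10.1 CPM, a log2 fold change of −1.01 with an SE of 0.195 (edgeR adjusted p = 0.00281). The deposited Fgfr2 gene spans 130162451 to 133123350, since its annotation holds transcripts that reach into other genes, and it shares 314 exonic bases with Ctbp2. Ctbp2 itself was at 53.2 ± 2.07 CPM (Vehicle) and 54.4 ± 3.29 CPM (LPS), with an adjusted p of 0.786. Gene counts do not separate the splice forms of Fgfr2, which decide which ligands it binds.

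Fgfr1 (ENSMUSG00000031565, chromosome 8, 25513654 to 25575718, plus strand), the main FGF receptor of mesenchymal cells, had 360, 375 and 389 CPM in Vehicle 1, 2 and 3 and 377, 343 and 362 CPM in LPS 1, 2 and 3. The ranges overlapped, with a log2 fold change of −0.05 with an SE of 0.0838 (edgeR adjusted p = 0.616). Of the RPKM of both receptors, Fgfr2 held 14.5 ± 1.64% in Vehicle and 7.97 ± 2.09% under LPS, without overlap (exact permutation p = 0.1, the smallest possible). Fgfr2 has a deposited length of 10328 bases and a longest annotated transcript of 4429 bases, so its RPKM depends on that choice, and its share was 16.8% and 9.34% with the longest transcript.

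In Vehicle, the order of RPKM levels was Fgf2 (67.7 ± 4.04), Fgf7 (48.9 ± 2.50), Fgfr1 (37.9 ± 1.46), Pdgfa (15.1 ± 2.12), Fgfr2 (6.42 ± 0.624), Pdgfd (6.09 ± 0.714), Pdgfc (4.45 ± 0.287), Fgf18 (1.81 ± 0.234), Pdgfb (1.47 ± 0.189) and Fgf10 (0.839 ± 0.140). Among neighbours in this order, the libraries of Fgfr2 and Pdgfd overlapped, as did those of Fgf18 and Pdgfb. Under LPS, Fgf7 (59.1 ± 0.725) and Fgf2 (57.6 ± 4.13) overlapped at the top, ahead of Fgfr1 (36.5 ± 1.72) and Pdgfa (26.2 ± 5.70). Pdgfd (4.18 ± 0.394), Pdgfc (3.93 ± 0.408), Fgf18 (3.64 ± 1.52), Pdgfb (3.24 ± 0.347) and Fgfr2 (3.19 ± 0.979) followed, each overlapping with its neighbour among these genes. Fgf10 was last, apart from all of them, at 0.479 ± 0.0829. With the longest transcript as the length, Fgfr1 took the second place in both groups, and the last place stayed with Fgf10. Under LPS, that length also moved Fgfr2 from place 9 to place 5 (7.43 RPKM) and Pdgfd from place 5 to place 8 (4.21 RPKM).

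Fold changes of all genes fell with gene length, which touches the values above. In 10 bins of tested genes by deposited length, the median log2 fold change was 0.68 in the bin of 57 to 1278 bases and −0.59 in the bin of 9583 to 123179 bases. Fgf18 (1187 bases) lay in the first of these, and Fgfr1 (9875 bases) and Fgfr2 (10328 bases) in the second, where 68.0% of genes were called lower. Relative to its bin's median, the log2 fold change was 0.34 for Fgf18, 0.53 for Fgfr1 and −0.42 for Fgfr2. It was 1.20 for Pdgfb, 0.61 for Pdgfa, −0.73 for Pdgfd and −0.75 for Fgf10, which lay in bins with medians of 0.19 or −0.06. Fgf7, Fgf2 and Pdgfc stayed close to their bin's median, at 0.08, −0.02 and −0.03.

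**Figure D3:**
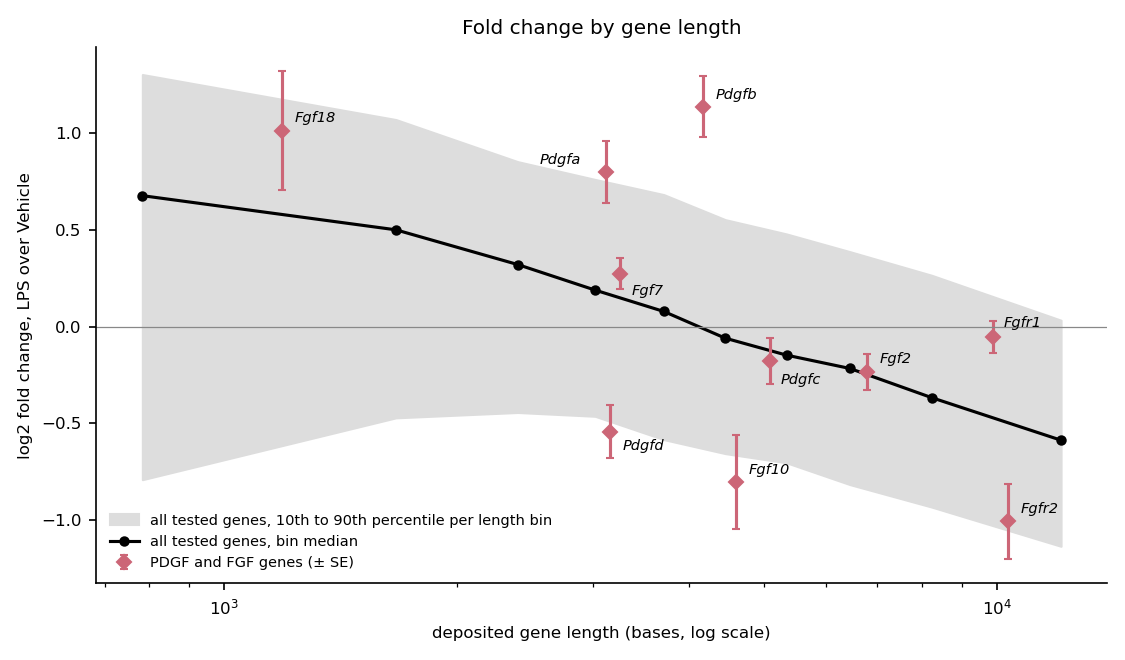
Log2 fold change (vertical axis, LPS over Vehicle) against deposited gene length in bases (horizontal axis, log scale) for the 10 genes (diamonds, ± SE), with the median (black line) and the 10th to 90th percentile (grey) of all tested genes in 10 length bins. Pdgfa and Pdgfb lie above the grey band and Pdgfd and Fgf10 below it, while Fgf7, Fgf2 and Pdgfc lie near the line.

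With an offset for the deposited gene length in the edgeR model, Pdgfa (log2 fold change 0.68, adjusted p = 0.00474), Pdgfb (1.15, adjusted p = 0.00141), Pdgfd (−0.65, adjusted p = 0.00402) and Fgf10 (−0.74, adjusted p = 0.0325) kept their calls. Fgfr2 was still called, with a smaller change than without the offset (−0.54 against −1.01, adjusted p = 0.0117). The calls of Fgf7 (0.18, adjusted p = 0.0799) and Fgf18 (0.57, adjusted p = 0.126) ended. Fgfr1 was called higher (0.41, adjusted p = 0.00471), and Fgf2 moved to 0.05 (adjusted p = 0.725). With the longest annotated transcript in its place, the call of Fgf10 ended as well (−0.65, adjusted p = 0.0575), Fgfr1 was again called higher (0.28, adjusted p = 0.0181), and Fgf2 was at 0.23 (adjusted p = 0.102). Under the deposited-length offset, 23.9% of all tested genes were called higher and 16.1% lower. Whether the length trend has a part in each gene's change was not tested.

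**Figure D4:**
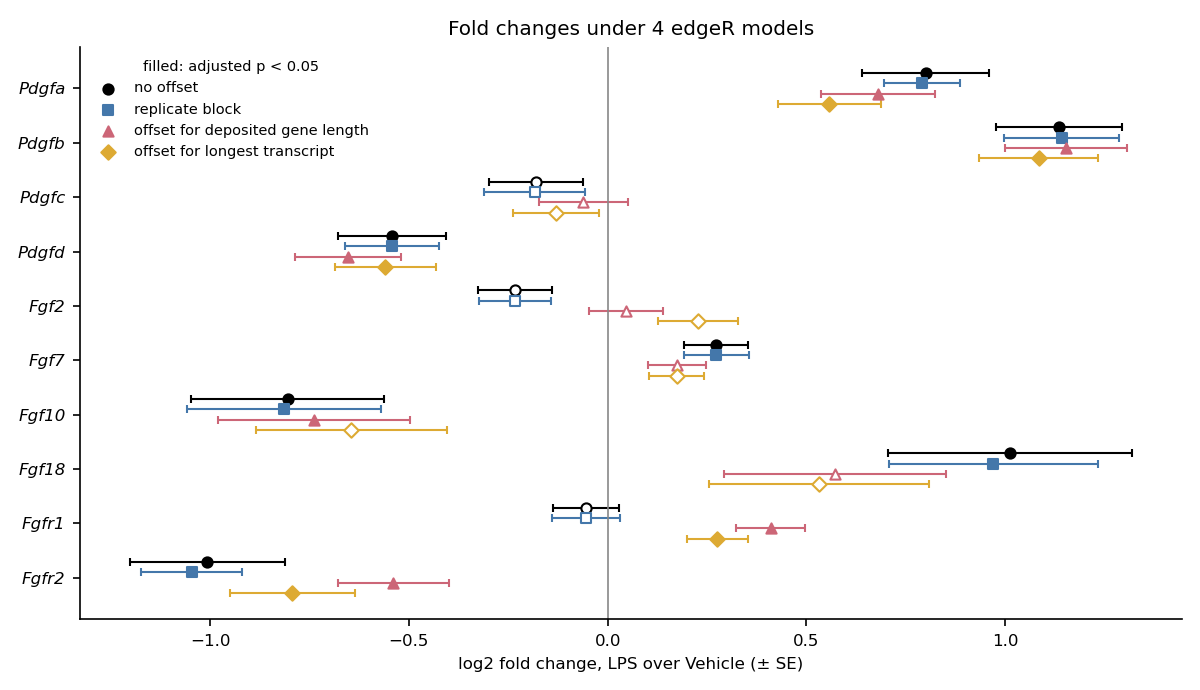
Log2 fold change, LPS over Vehicle (horizontal axis, ± SE), of each gene in 4 edgeR models; filled symbols have an adjusted p below 0.05. Pdgfa, Pdgfb, Pdgfd and Fgfr2 keep their side and their call in all 4, while Fgfr1 moves from −0.05 to 0.41 with the offset for deposited gene length.

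The 3 isolations were compared in a model with isolation and group. Of all tested genes, 0.00689% were called different between isolations, and none of the 10 genes was (edgeR adjusted p between 0.540 and 0.984). With 6 libraries, a missing call does not show that the isolations were alike. The lowest unadjusted p for isolation among the 10 genes were those of Pdgfa (0.00589) and Fgfr2 (0.0147) in this edgeR test, named after their values were seen. The share of all tested genes with such an unadjusted p was not counted. With the replicate block, their SE was 0.0955 and 0.127, against 0.160 and 0.195 without it. Without isolation 2, which left 2 libraries a group, edgeR called none of the 10 genes between LPS and Vehicle. The adjusted p was then 0.0738 for Pdgfa, 0.0644 for Pdgfb, 0.117 for Pdgfd and 0.0709 for Fgfr2, with log2 fold changes of 0.77, 1.08, −0.53 and −0.96. Leaving out isolation 1 or isolation 3 also left 2 libraries a group, and Pdgfa, Pdgfb, Pdgfd and Fgfr2 kept their calls in both fits.

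The profiles of 10114 protein-coding genes with at least 5 CPM were compared with those of Pdgfb and Fgfr2, the genes with the largest rise and fall without a length offset, as the root mean square difference of centred log2 CPM over the 6 libraries. The genes nearest to Pdgfb were Tusc1 (difference 0.0880), the hyaluronan synthase gene Has1 (0.0912) and the MHC class I gene H2-K1 (0.0996). Has1 went from 21.8 CPM in Vehicle to 45.1 CPM under LPS. Nearest to Fgfr2 were Fam129a (0.0433), the RNA-binding protein gene Bicc1 (0.0444) and Frs2 (0.0517), the FGF receptor adaptor gene that is also on the signalling list below. Frs2 went from 185 ± 17.9 to 87.0 ± 23.7 CPM. The profiles were compared without a length offset. With the offset for deposited length described above, the log2 fold change was −0.71 for Fam129a (−1.02 without it), −0.67 for Bicc1 (−0.99) and −0.69 for Frs2 (−1.09). That of Fgfr2 was −0.54 (−1.01). Whether gene length has a part in this likeness was not tested.

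The receptors of the PDGFs fell while Pdgfa and Pdgfb rose. Of 6 further receptor genes, 5 were tested, 0 rose and 2 fell, beside 24.9% and 24.4% of all tested genes, with a median log2 fold change of −0.54 beside −0.00306 over all tested genes. Pdgfra (728.6 ± 73.4 CPM in Vehicle, 388.9 ± 93.1 CPM under LPS) fell by 0.91 on the log2 scale (edgeR adjusted p = 0.00193), or by 0.45 with the offset for deposited length. Pdgfrb (620.9 ± 9.39 and 427.9 ± 53.9 CPM) fell by 0.54 (adjusted p = 0.00284), or by 0.38 with that offset and by 0.16 without a call with the longest transcript (adjusted p = 0.104). Fgfrl1, a receptor without a kinase domain, was at 46.3 ± 2.18 and 41.9 ± 3.29 CPM (adjusted p = 0.241); it was called lower with the offset (log2 fold change −0.31, adjusted p = 0.0310) and without LPS 1 (adjusted p = 0.0466). Pdgfra is also a fibroblast marker. Of the 7 fibroblast markers 1 rose and 3 fell, and of the 6 pericyte markers 0 rose and 2 fell; their part in the receptor change was not tested.

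Of 18 further FGF family genes, not all of which encode secreted ligands, 5 were tested, 0 rose and 2 fell (median log2 fold change −0.32). Over all tested genes, 24.9% rose and 24.4% fell. Fgf14, an intracellular FGF-like protein that regulates sodium channels, fell from 3.76 ± 1.34 to 0.869 ± 0.679 CPM (log2 fold change −2.06, adjusted p = 0.00635). Fgf23, the phosphate-regulating hormone known from bone, fell from 6.32 ± 1.85 to 3.12 ± 0.799 CPM (−0.99, adjusted p = 0.0147), a call that ended without Vehicle 1 (adjusted p = 0.0674), Vehicle 2 (0.0562) and LPS 2 (0.0603). Fgf1 had 2.39 ± 0.340 and 2.89 ± 0.808 CPM (adjusted p = 0.405).

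Co-receptors and extracellular modulators of both families held more lower than higher calls: of 23 tested genes among 27 listed, 5 rose and 15 fell, with a median log2 fold change of −0.44, where 24.9% of all tested genes rose and 24.4% fell. With the offset for deposited length, 4 rose and 8 fell, with a median of −0.07, beside 23.9% and 16.1% of all tested genes. Plau, urokinase, a protease that can activate PDGF-D, rose from 14.9 ± 1.29 to 41.3 ± 7.30 CPM (log2 fold change 1.47, adjusted p = 0.000825). Ndst1, an enzyme of heparan sulfate sulfation, fell from 160 ± 13.6 to 58.4 ± 21.4 CPM (−1.45, adjusted p = 0.00144, and −1.25 with the offset). Flrt2, a membrane protein of a family that interacts with FGF receptors, fell from 203 ± 10.9 to 86.7 ± 13.9 CPM (−1.23, adjusted p = 0.000761, and −0.89 with the offset). Sparc, a matrix protein that binds PDGF, had 1608 ± 75.8 and 1679 ± 71.9 CPM (adjusted p = 0.602). The number of genes that rose was 2 without Vehicle 1, and 3 without Vehicle 2 and without LPS 3. Over all tested genes it was, in the same order, 2669 of 14996, 2528 of 14982 and 2929 of 14736, against 3616 of 14508 with all libraries.

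Of 29 signalling genes downstream of both receptor families, all tested, 3 rose and 15 fell (median log2 fold change −0.29), or 3 and 8 with the offset for deposited length (median −0.05). The shares over all tested genes were 24.9% higher and 24.4% lower, or 23.9% and 16.1% with the offset. The kinase gene Braf fell by 1.09 on the log2 scale (adjusted p = 0.00150) and Frs2 by 1.09 (adjusted p = 0.00154), or by 0.49 and 0.69 with the offset. The small GTPase gene Hras rose from 74.3 ± 6.04 to 143 ± 40.0 CPM (log2 fold change 0.95, adjusted p = 0.00282), or 0.91 with the offset. Map2k1, a kinase upstream of ERK, had 369 ± 30.7 and 424 ± 18.1 CPM (adjusted p = 0.0979). With the longest-transcript offset 6 rose and 7 fell, beside 21.8% and 13.8% of all tested genes. Without LPS 1 the number that rose was 5, where 4362 of all 14786 tested genes rose, against 3616 of 14508 with all libraries.

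Of 16 feedback regulators and target genes, all tested, 3 rose and 5 fell (median log2 fold change −0.19, and 0.04 with the offset for deposited length, when 3 rose and 4 fell). These counts lay near the background of 24.9% higher and 24.4% lower over all tested genes. Il17rd, also called Sef, an inhibitor of FGF signalling, fell from 7.17 ± 1.13 to 3.01 ± 0.584 CPM (−1.24, adjusted p = 0.00185, and −0.73 with the offset). The Sprouty gene Spry3 fell from 3.03 ± 0.564 to 1.31 ± 0.445 CPM (−1.20, adjusted p = 0.0117). The 3 genes that rose, named after their values were seen, included the Sprouty genes Spry2 (50.1 ± 7.39 to 77.8 ± 13.8 CPM, log2 fold change 0.63, adjusted p = 0.00657) and Spry4 (10.3 ± 0.582 to 13.4 ± 0.909 CPM, 0.38, adjusted p = 0.0348). The other was the ERK phosphatase gene Dusp5 (39.6 ± 8.58 to 71.7 ± 25.4 CPM, 0.85, adjusted p = 0.0153). The LPS and Vehicle libraries of Dusp5 overlapped in CPM, though LPS was higher within each isolation. Spry1, at 11.9 ± 0.692 CPM in Vehicle and 13.4 ± 2.61 CPM under LPS, was not called (0.17, adjusted p = 0.414). Nor were Dusp4 (−0.47, adjusted p = 0.0861), Dusp6 (0.41, 0.0593), Etv1 (−0.47, 0.0585), Etv4 (0.42, 0.149), Etv5 (−0.14, 0.327) and Spred3 (−0.15, 0.199). Cbl, a ubiquitin ligase that acts on activated receptors, fell from 127 ± 12.7 to 63.9 ± 13.0 CPM (−0.99, adjusted p = 0.00144, or −0.43 with the offset). It was not called with the longest-transcript offset (−0.23, adjusted p = 0.0523). Spred1, an inhibitor of the Ras pathway, was at 149 ± 7.30 and 128 ± 12.4 CPM (adjusted p = 0.0810); it was called lower without LPS 3 (adjusted p = 0.0309), without isolation 1 (0.0263) and with library sizes alone (0.0252). Its log2 fold change of −0.22 turned to 0.06 and 0.25 with the offsets for deposited length and longest transcript, without a call. The number that rose was 1 without Vehicle 1 and without Vehicle 2, and 5 without LPS 1. Over all tested genes it was, in the same order, 2669 of 14996, 2528 of 14982 and 4362 of 14786, against 3616 of 14508 with all libraries. The number that fell was 2 with the longest-transcript offset, where 13.8% of all tested genes fell.

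**Figure D5:**
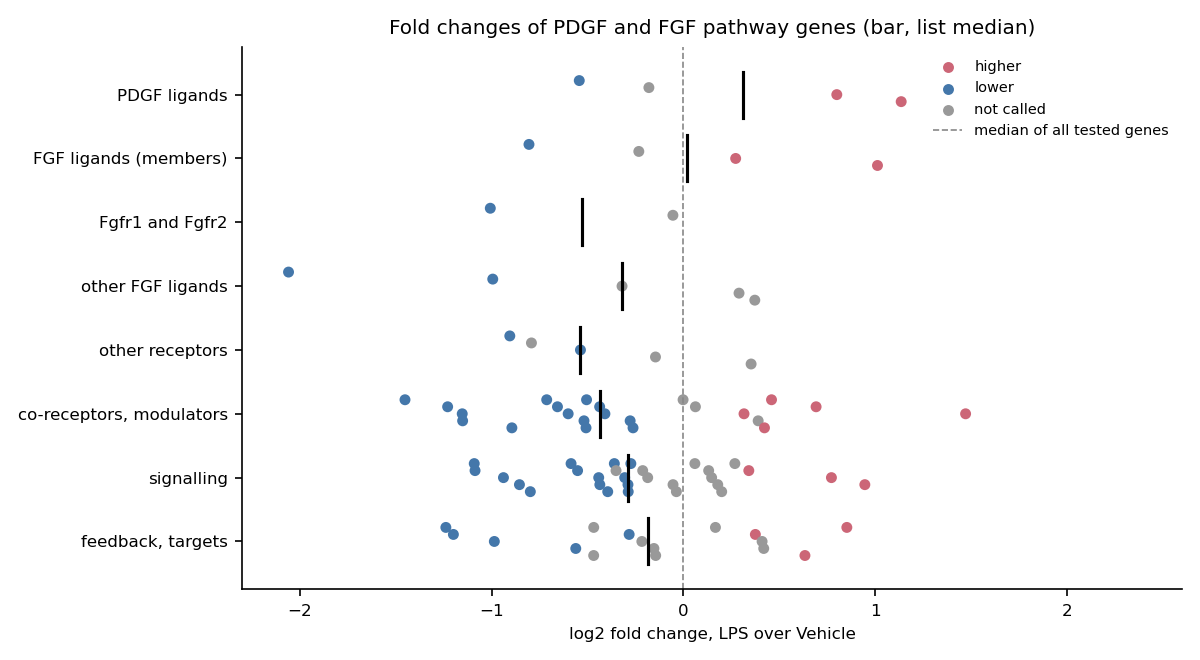
Log2 fold change, LPS over Vehicle (horizontal axis), of the tested genes in the 3 groups of PDGF and FGF genes and the 5 lists of pathway genes (vertical axis); red points were called higher, blue lower, grey not called, black bars are medians and the dashed line is the median of all tested genes. The PDGF and FGF ligand groups hold calls on both sides, and the co-receptor list has 15 genes lower and 5 higher. The row named other FGF ligands is the list of 18 further FGF family genes, which includes the intracellular Fgf14.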

How the data were processed

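TRIzol-extracted total RNA was sequenced by Novogene with paired-end reads, per the labels' protocols. The submitters' processing notes name HISAT2 and the builds GRCm38 and mm10. Nothing used here states how reads were counted, with which strand setting or against which annotation. The authors deposited whole-number counts per gene, not normalised, and a gene length, which for the 10 genes equals the union of their GENCODE M21 exons. GENCODE held 99.932% of the gene IDs. Columns M1 to M3 without a treatment in their name were taken as Vehicle 1 to 3.

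LPS was tested against Vehicle with edgeR 4.0.16 under R 4.3.3 (TMM, filterByExpr by group, 14508 genes kept, 2-sided quasi-likelihood F-test, Benjamini-Hochberg adjustment over all tested genes, threshold 0.05). CPM and RPKM use TMM-scaled library sizes; fold changes are as fitted, SEs come from the F statistic, and SDs are between libraries. A number marks 1 cell isolation shared by both groups, per the labels' batch field, so the libraries are paired; paired deviations correlated by 0.0958, −0.0450 and 0.206 across genes in isolations 1, 2 and 3.

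Alternatives were size factors from DESeq2, plain library sizes, no filter on low counts, at least 1 CPM in 3 libraries, DESeq2 1.42.0, limma-voom (limma 3.58.1), the isolation as a replicate block, offsets for length (natural splines of log2 length, 5 degrees of freedom, fitted to the log2 deviations in each library) and leaving out each library or isolation. DESeq2 without isolation 2 was added after the data were seen. The named genes are the 10 genes, the 3 called genes with the largest change and the most abundant uncalled gene of each pathway list, the genes with the nearest profiles, and markers. Neighbours that share exonic bases with Pdgfa, Fgf2 and Fgfr2 are named as well. Of the feedback list, Spry1, Spry2, Spry4, Spred3 and the Dusp and Etv genes were added after their values were seen. The members and lists were chosen with earlier results of these data known.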

Additional observations from a re-analysis of the deposited data

How the results depend on the processing

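Of the 10 genes, Pdgfa, Pdgfb and Fgfr2 kept their call in 19 of 20 alternatives and Pdgfd in 18, and Pdgfc stayed uncalled in all 20. Calls ended in 11 of 20 alternatives for Fgf7, 9 for Fgf18 and 7 for Fgf10, and Fgf2 was called lower in 4. Fgfr1 changed direction to a call with the offset for deposited length (log2 fold change 0.41), also with the replicate block added (0.41), and with the longest-transcript offset (0.28); the cause was not tested. The replicate block alone changed no call of the 10 genes. Leaving out 1 library or 1 isolation gave 0 to 4 of the 10 genes higher and 0 to 4 lower, and 8 to 4362 genes higher and 0 to 4463 lower over all genes. The lowest counts came without isolation 2, when edgeR had 2 libraries a group, and 2587 genes were higher and 2469 lower at an unadjusted p under 0.05. DESeq2 then called 2 of the 10 genes higher (Pdgfa, Pdgfb) and 1 lower (Fgfr2), and 1543 and 1259 over all genes. Leaving out isolation 1 or isolation 3 also left 2 libraries a group. In those fits edgeR called 4079 and 2515 genes higher, and 4170 and 2439 lower. The count of all genes called lower, 3534, was 2339 with the deposited-length offset and 1995 with the longest-transcript offset. With library sizes alone, 3117 genes were higher and 3900 lower, and the median of all genes moved to −0.0756 on the log2 scale. With the longest transcript as the length, the change in share was 12.1 percentage points for Pdgfa (13.9 with the deposited length), −8.62 for Pdgfd (−11.4), 7.43 for Fgfr1 (6.51) and −7.43 for Fgfr2 (−6.51). Depth limits Fgf10 and Fgf18 most, with 35 to 127 counts per library.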
